A study of Saccharomyces cerevisiae with 12 samples.

Results

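The comparison described here sets the yeast strain with a temperature-sensitive TOR2 allele (SH121, called MU) against its wild-type counterpart (SH100, called WT) after 6 h at 37 °C. Its members are the 4 arrays labelled with that time, MU 6 h A and B and WT 6 h A and B, of 12 in the series, and all 9275 of 9335 probe sets that are not Affymetrix controls. The remaining 8 arrays hold the same strains at 25 °C (0 h) and after 2 h at 37 °C, again as 2 cultures, A and B, of each strain at each time. Both strains of Saccharomyces cerevisiae were grown in rich glucose medium as independent duplicate cultures and collected at the same low density, and RNA was hybridised to Yeast Genome S98 arrays. Per the study's description, the mutant allele impairs the signalling that only TOR2 provides. Each value is a MAS 5.0 signal, the summarised brightness of a probe set, and a log2 difference is MU minus WT with 2 arrays each, after quantile normalization in the fit and from the signals as deposited where a pair of arrays (A with A, B with B) is compared.

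TOR2 is a protein kinase of the TOR family. Either TOR1 or TOR2 can serve as the kinase of the growth-promoting complex TORC1, and only TOR2 serves in TORC2. TORC2 acts through the Ypk kinases on actin polarity, sphingolipid synthesis and the plasma membrane. Calcineurin, a calcium-activated phosphatase, is known as an opponent of TORC2 signalling in yeast and acts on transcription through Crz1. Gcn4 is the activator of amino acid synthesis genes, and its amount is set by translation and by breakdown.

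The 2 duplicates of a group differed about as much as the strains did. Duplicate arrays at 6 h differed by a median of 0.256 in MU and 0.236 in WT (absolute log2 difference per probe set), and MU 6 h A and WT 6 h A, at 0.193, were closer to each other than either was to its own duplicate. By limma on all 12 arrays, 0 of 9275 probe sets passed an adjusted p of 0.05 in either direction, while 342 higher and 464 lower ones (3.69% and 5.0%) had an unadjusted p under 0.05. The rank difference method of the study (RDAM), written anew, selected 6 probe sets as higher (0.0647%) and 0 as lower at a false discovery rate of 10%. A further 13 lay at 10.8%, so the count depends on the threshold, and it comes from this version of the method, not from the study's own. The 6 were 2 probe sets of ribosomal RNA, 1 annotated to COX1 and its introns, 1 without a gene symbol, RTA1 and MRP8. The absence of calls in limma depended on the arrays: without MU 6 h A 10 probe sets passed as higher and 16 as lower, without MU 6 h B 4 and 12, without WT 6 h A 2 and 4, and without WT 6 h B 2 and 0, with the lone array assumed to vary like the other groups. MU lay above WT without overlap of the arrays at 1223 probe sets (13.2%) and below it at 1798 (19.4%). An exact permutation of 2 against 2 arrays cannot give a two-sided p below 0.33, and none is given. Values below are therefore described as higher or lower on these arrays, without a claim of change. Messenger RNA was measured in whole cultures, so fewer cells of a kind and less RNA per cell cannot be told apart.

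TOR2 itself had signals of 306.6 and 267.0 in MU 6 h, against 268.9 and 351.1 in WT 6 h. These overlap, and the array reads RNA level, so it does not test an allele that acts on the protein. TOR1 had 147.9 and 134.1 in MU and 148.0 and 150.3 in WT. Of 32 genes of the TOR complexes and TORC2 effectors, 4 were higher and 5 lower without overlap, with a median difference of -0.05 beside -0.01 over all probe sets. These are 12.5% and 15.6%, beside 12% and 21.3% over all genes, counted with 1 probe set a gene.

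Among the leading lower genes, DIP5 and SAM2 had the lowest p. DIP5, the permease for glutamate and aspartate, had 537.2 and 598.6 in MU 6 h, against 922.3 and 857.8 in WT 6 h (log2 difference -0.64, SE 0.08, adjusted p = 0.14 by limma). SAM2, an S-adenosylmethionine synthetase, had 378.3 and 348.9 in MU, against 546.8 and 577.5 in WT (-0.62, SE 0.09, adjusted p = 0.15 by limma). Both array pairs showed a similar gap, and the 2 genes did not share it at 0 h and 2 h: DIP5 was higher in MU at both earlier times, and SAM2 differed little between the strains. RPL27B, a protein of the large ribosomal subunit, had 1779.4 and 1535.2 in MU and 2336.2 and 2489.5 in WT. FET3, the multicopper oxidase of high-affinity iron uptake, had 1947.8 and 1926.2 in MU and 2404.0 and 2400.4 in WT, where the duplicates of each strain almost coincide.

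The same side of the comparison held a receptor and an efflux pump. STE2, the alpha-factor receptor, had 243.7 and 153.6 in MU 6 h, against 409.1 and 349.9 in WT 6 h (-0.96, SE 0.19, adjusted p = 0.319 by limma). PDR12, the plasma membrane pump for weak organic acids, had 201.0 and 121.1 in MU, against 334.3 and 317.7 in WT (-1.06, SE 0.21, adjusted p = 0.33 by limma). In both, MU B was the lowest array. TOM22, a receptor of mitochondrial protein import, had 415.8 and 449.8 in MU and 553.2 and 544.6 in WT. GET3, the ATPase that guides tail-anchored proteins to the endoplasmic reticulum, had 401.2 and 352.0 in MU and 500.1 and 476.8 in WT. RBA50 and FSH1 complete the 10 leading lower genes, with log2 differences of -0.48 and -0.44. With 1 array left out some passed the threshold by limma: STE2, PDR12 and RPL27B without MU 6 h A (adjusted p = 0.0263, 0.029 and 0.0425), and DIP5 without MU 6 h B (adjusted p = 0.0475). Without MU 6 h B, the lowest array, the log2 differences of STE2 and PDR12 were -0.63 and -0.70, against -1.30 and -1.42 without MU 6 h A.

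On the higher side, COX1 led. COX1, the mitochondrially encoded subunit I of cytochrome c oxidase, had 1096.8 and 1288.3 in MU 6 h, against 413.6 and 638.0 in WT 6 h (log2 difference 1.22, SE 0.18, adjusted p = 0.15 by limma). At 0 h its signal was 1241.9 and 1260.1 in MU and 1158.7 and 1296.8 in WT, and at 2 h it was 511.2 and 519.2 in MU and 390.0 and 414.0 in WT. The MU 6 h signals lay near those of 0 h. WT 6 h A lay near the 2 h signals of WT, and WT 6 h B above them. Without WT 6 h B, COX1 passed the threshold by limma (log2 difference 1.53, adjusted p = 0.0201). The other 2 COX1 probe sets were dim and differed by 0.48 and -0.06.

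ATG8, the ubiquitin-like protein of autophagosome membranes, had 390.1 and 617.2 in MU 6 h, against 255.6 and 266.2 in WT 6 h (0.92, SE 0.19, adjusted p = 0.389 by limma). PCL5, the cyclin that directs the kinase Pho85 to Gcn4 for its breakdown, had 194.1 and 350.7 in MU, against 119.7 and 125.8 in WT (1.09, SE 0.23, adjusted p = 0.389 by limma). Both WT duplicates were close, and the spread lay in MU, with B above A. Without MU 6 h A both passed by limma, ATG8 with an adjusted p of 0.0324 and PCL5 with 0.0124. That leaves only the higher MU array, and without MU 6 h B the log2 differences were 0.59 for ATG8 (adjusted p = 0.343 by limma) and 0.67 for PCL5 (adjusted p = 0.154 by limma). MRP8, of unknown function, had 1072.4 and 1793.7 in MU and 347.0 and 605.4 in WT (1.61, SE 0.39, adjusted p = 0.415 by limma). CAR1, arginase, had 936.8 and 1218.6 in MU and 789.0 and 606.0 in WT. The GTPase gene YPT52, CPP2, the oxysterol-binding protein gene SWH1, the splicing factor gene RDS3 and the elongation factor gene ELF1 were higher by 0.41 to 0.60 on the log2 scale.

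**Figure D1:**
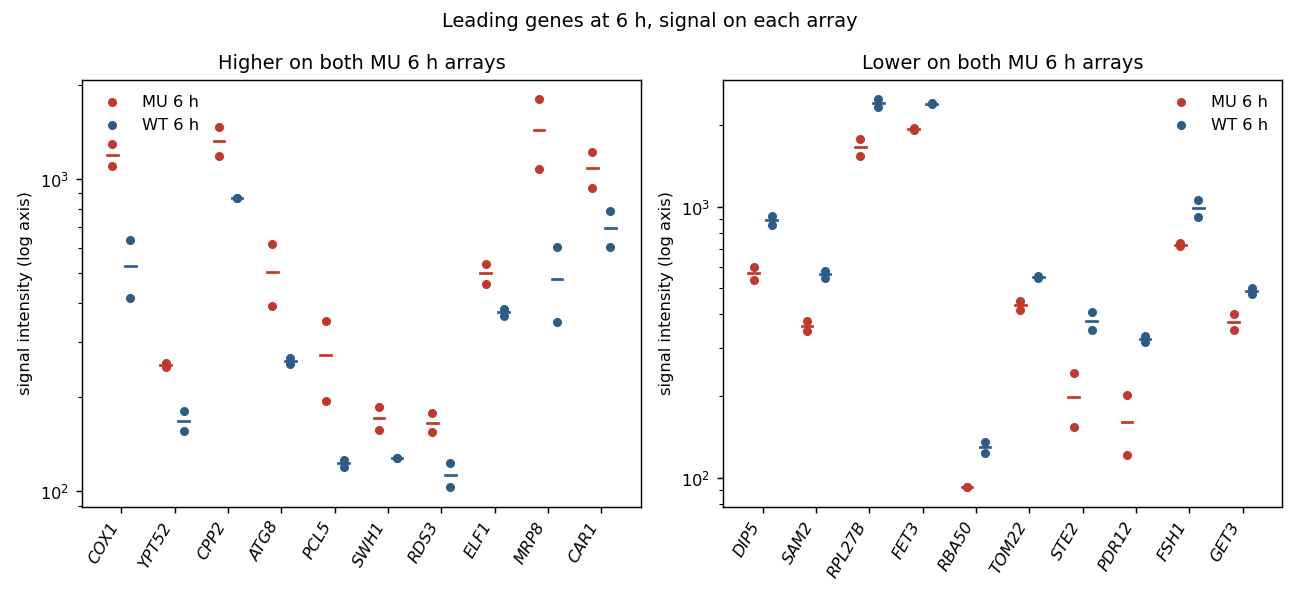
Signals of the 10 leading genes higher and the 10 lower in MU 6 h than in WT 6 h, on a log axis, with each array as a point and the group mean as a bar. The points of the strains do not overlap, which was a condition for entering the plot, and no gene passed an adjusted p of 0.05.

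A larger set of genes had a different order of arrays: highest on MU 6 h B, lowest on WT 6 h B, and close together on MU 6 h A and WT 6 h A. HXT5, a hexose transporter of slow growth, had 565.9 and 1676.2 in MU, against 746.7 and 159.6 in WT. CMK2, a calmodulin-dependent kinase, had 484.1 and 1117.6 in MU and 525.4 and 136.3 in WT. The study lists HXT5 and CMK2 as increased at 6 h on these same arrays, so their higher level in MU was fixed by that choice. For these genes the strain difference depended on which arrays were matched, and their order makes the B pair the widest. HXT5 differed by -0.40 between the A arrays and by 3.39 between the B arrays, and CMK2 by -0.12 and 3.04. The letters do not pair the cultures. With the letters crossed, HXT5 differed by 1.83 (MU A minus WT B) and 1.17 (MU B minus WT A), and CMK2 by 1.83 and 1.09. Of all probe sets, 10.2% were highest on MU B and lowest on WT B, and the counts in lists are read against that share. The lists use 1 probe set a gene, and over all 5656 genes with one, 12% were higher and 21.3% lower without overlap, and 3.27% and 5.43% had an unadjusted p under 0.05 in those directions.

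Calcineurin targets had the highest median of the 25 lists measured, 0.41 beside -0.01 over all probe sets. Of 23 measured, 7 were higher without overlap and 4 lower, 7 had an unadjusted p under 0.05 (all higher), and none passed the adjusted p. The median was 0.01 between the A arrays and 0.68 between the B arrays, and 14 of the 23 were highest on MU B and lowest on WT B. With the letters crossed the median was 0.38 (MU A minus WT B) and 0.25 (MU B minus WT A). Without WT 6 h B the median was 0.07, and without MU 6 h B it was 0.21. PUN1, a plasma membrane protein, had 1448.0 and 2699.1 in MU 6 h and 1218.8 and 477.7 in WT 6 h (1.39, SE 0.42, adjusted p = 0.446 by limma). GSC2, the glucan synthase subunit that calcineurin induces, had 1028.4 and 1607.5 in MU and 1004.6 and 381.9 in WT. Its 7 probe sets, which read the same RNA, had differences of 0.74 to 2.18, and 4 of them were higher without overlap. Between the A arrays they differed by -0.27 to 0.61. PUN1 and some probe sets of GSC2 are in the study's list of genes increased at 6 h, made from these same arrays. RCN1 and RCN2, which encode regulators of calcineurin and were named after their values had been seen, differed by -0.28 and 0.06 between the A arrays and by 2.67 and 1.95 between the B arrays.

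Genes of stationary phase and glucose exhaustion showed the same order in 18 of 40. Their median was 0.24, at -0.05 between the A arrays and 0.37 between the B arrays, with 9 higher and 2 lower without overlap, and it was 0.06 without MU 6 h B and 0.08 without WT 6 h B. SPG4, named for stationary phase, had 102.9 and 301.7 in MU and 86.1 and 10.7 in WT. JEN1, the lactate permease, had 42.4 and 107.4 in MU and 40.6 and 4.0 in WT. PRB1, the vacuolar proteinase B, had 1295.8 and 2332.2 in MU and 1158.5 and 599.5 in WT. The study had selected SPG4, JEN1 and PRB1 as increased at 6 h on these same arrays, so their higher level in MU was fixed by that choice. ADH2, the ethanol-oxidising alcohol dehydrogenase, had 127.4 and 169.5 in MU and 96.5 and 64.0 in WT. ATO3, the gene of this list with the lowest p, went the other way. Its log2 difference lay between -0.527 and -0.285 with an array left out. Of 49 cell wall integrity genes 19 had that order, with a median of 0.07 over all 4 arrays, -0.07 between the A arrays and 0.16 between the B arrays, and it was -0.01 without MU 6 h B. Of 26 iron regulon genes 12 had it, with a median of 0.14, at -0.05 between the A arrays and 0.43 between the B arrays, and it was 0.05 without MU 6 h B and 0.03 without WT 6 h B. The letters do not pair the cultures of the strains, and the part of culture stage in this order was not tested.

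**Figure D2:**
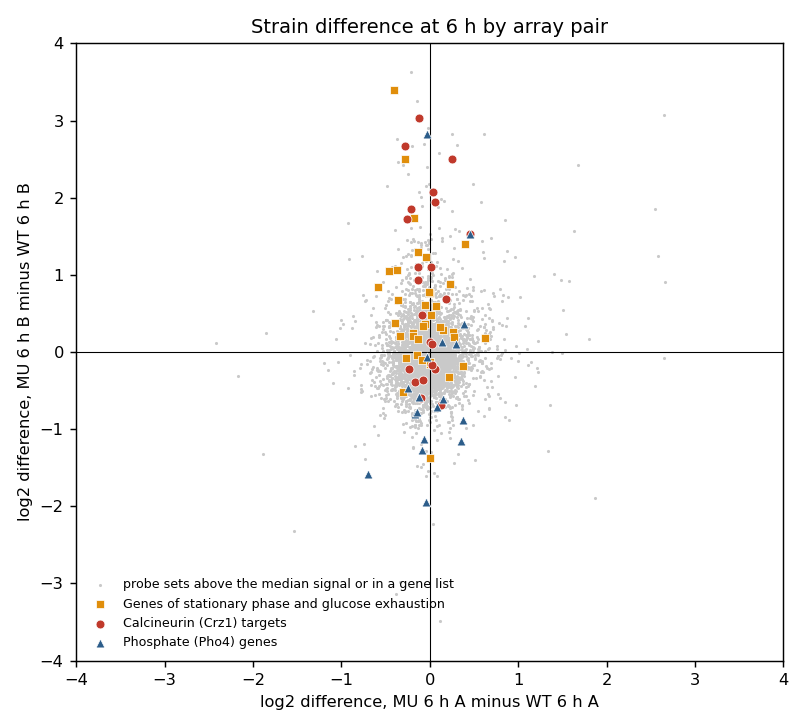
Log2 difference between the A arrays (horizontal) against that between the B arrays (vertical) for 4792 probe sets, those above the median signal or in a gene list, with 3 lists marked. Of these, 8 lie beyond the axis limit of 4. Calcineurin targets and stationary-phase genes spread upwards along the vertical axis, and phosphate genes mostly downwards, while their spread on the horizontal axis is small. The letters do not pair the cultures, so another matching would place the points differently.

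The opposite order, lowest on MU B and highest on WT B, held for 11.7% of all probe sets and for 9 of 18 phosphate genes. Their median was -0.33, at -0.03 between the A arrays and -0.66 between the B arrays, with 8 lower and 2 higher without overlap, and it was -0.07 without MU 6 h B. VTC1, a subunit of the polyphosphate polymerase, had 2239.6 and 1711.6 in MU 6 h and 2517.0 and 2975.8 in WT 6 h. PHO8, the vacuolar alkaline phosphatase, had 178.3 and 151.6 in MU and 211.2 and 210.0 in WT. PHO89, the sodium-phosphate transporter, had the other order, highest on MU B and lowest on WT B, with 848.4 and 1384.9 in MU and 866.6 and 194.9 in WT. Cell cycle and histone genes had a median of -0.16, with 4 of 30 higher and 11 lower without overlap. These are 13.3% and 36.7%, beside 12% and 21.3% over all genes. Of the 30, 9 were lowest on MU B and highest on WT B. The lowest p belonged to PCL5, given above, which was higher in MU. FAR1, the inhibitor of G1 cyclin kinases in pheromone arrest, was among the lower, with 285.0 and 240.9 in MU and 320.3 and 463.3 in WT.

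Genes of protein synthesis and turnover had small median differences. Of 81 ribosomal protein genes 17 were lower and 1 higher without overlap, with a median of -0.03. Of 94 ribosome biogenesis genes 20 were lower and 4 higher, with a median of -0.07, and NIP7, a factor of 60S subunit assembly, had 107.8 and 95.3 in MU and 150.1 and 148.2 in WT. The lower shares, close to that over all genes, stood beside higher shares of 1.23% and 4.26%, under the 12% over all genes. Proteasome genes were lower in 11 of 33 (33.3%, beside 21.3% over all genes), with a median of -0.08, and PRE1, a subunit of its core, had 534.7 and 489.6 in MU and 607.1 and 593.0 in WT. Among chaperones of the heat shock factor, 3 were higher and 4 lower of 27. YDJ1, the main cytosolic Hsp40, had 2022.3 and 1844.4 in MU and 2302.1 and 2419.6 in WT.

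Of 54 Gcn4 targets 12 were higher and 6 lower without overlap (22.2% and 11.1%), with a median of 0.08. Of the 54, 6 higher and 2 lower had an unadjusted p under 0.05. Highest on MU B and lowest on WT B were 18 of them, beside 10.2% of all probe sets. The list median was 0.002 between the A arrays and 0.147 between the B arrays. PCL5, above, was the highest-placed by p, and HOM2, an enzyme of threonine and methionine synthesis, had 606.1 and 651.5 in MU and 790.6 and 738.2 in WT. LEU4, the first enzyme of leucine synthesis, had 1887.4 and 2241.7 in MU 6 h and 2.2 and 1846.3 in WT 6 h, so that its difference rests on a single array near the floor. Its log2 difference was 5.09, and without WT 6 h A it was 0.16 (adjusted p = 0.764 by limma), while without WT 6 h B, which left the array near the floor alone, it passed. The vitamin B6 gene SNZ1 had 130.7 and 235.4 in MU and 119.8 and 59.3 in WT.

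Mitochondrial genome genes had a median of 0.39, with 7 higher and 2 lower without overlap of 19 measured. These are 36.8% and 10.5%, beside 12% and 21.3% over all genes. Only 2 of the 19 had a mean signal above that of the median probe set. The median signal of the list was 7.6 and 5.0 in MU 6 h and 3.7 and 5.0 in WT 6 h, near the floor of 1. Here the A arrays carried the larger difference, 0.88 against 0.13 between the B arrays. The median of the same list was 0.53 at 2 h and 0.18 at 0 h, positive at each time. Nuclear genes of the respiratory chain, which are far brighter, had a median of 0.02, with 4 higher and 14 lower of 43 (9.3% and 32.6%). CYT1, cytochrome c1, had 523.7 and 455.0 in MU and 374.5 and 442.2 in WT, and ATP20, a subunit of ATP synthase, had 118.8 and 94.9 in MU and 153.8 and 136.9 in WT. Of the 5 control probe sets for 25S rRNA, which the labelling is not meant to read, 1 was bright and had 3290.6 and 431.4 in MU 6 h and 35.6 and 130.4 in WT 6 h, and the other 4 stayed at 21 or less on these arrays. The bright one also had 4697.6 on MU 0 h A, and its part in the mitochondrial values was not tested. The ratio of 3-prime to 5-prime signal for ACT1, a gauge of RNA integrity, was 1.56 and 1.51 in MU and 1.49 and 1.42 in WT. It was 4.23 and 4.85 in MU and 3.5 and 4.54 in WT for SPT15, and 3.15 and 3.13 in MU and 2.36 and 2.81 in WT for SRB4, so 2 of these 3 control genes had higher ratios in MU without overlap. The part of RNA integrity in the strain differences was not tested.

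A list of genes of drug efflux and 7-aminocholesterol resistance, drawn up around the regulators Pdr1 and Pdr3, had 14 measured. Of these, 7 were higher and 0 lower without overlap (12% of all genes were higher). The list median was 0.21, with 0.04 between the A arrays and 0.37 between the B arrays. PDR5, the major multidrug pump, had 2906.3 and 3501.1 in MU 6 h and 2686.2 and 1939.8 in WT 6 h (0.49, SE 0.15, adjusted p = 0.45 by limma). All 7 probe sets of PDR5 were higher in MU without overlap, by 0.49 to 1.41. They read the same RNA, so they are not separate measurements of the strain difference. Several of them were also higher in MU without overlap at 2 h and at 0 h, so this is not particular to 6 h. The plain probe set overlapped at both earlier times, with a log2 difference of 0.03 at each. RTA1, a membrane protein tied to 7-aminocholesterol resistance, had 164.8 and 331.4 in MU and 115.6 and 20.1 in WT, and was 1 of the 6 that RDAM selected at 10%. RTA1 and some probe sets of PDR5 are also in the study's list of genes increased at 6 h, made from these same arrays. The counts of the drug efflux list are therefore not independent of that selection. Probe sets with a letter before the _at ending, which include the tiled ones of long genes, were higher without overlap in 18.7% and lower in 12.6%, against 11.9% and 20.9% for plain ones.

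**Figure D3:**
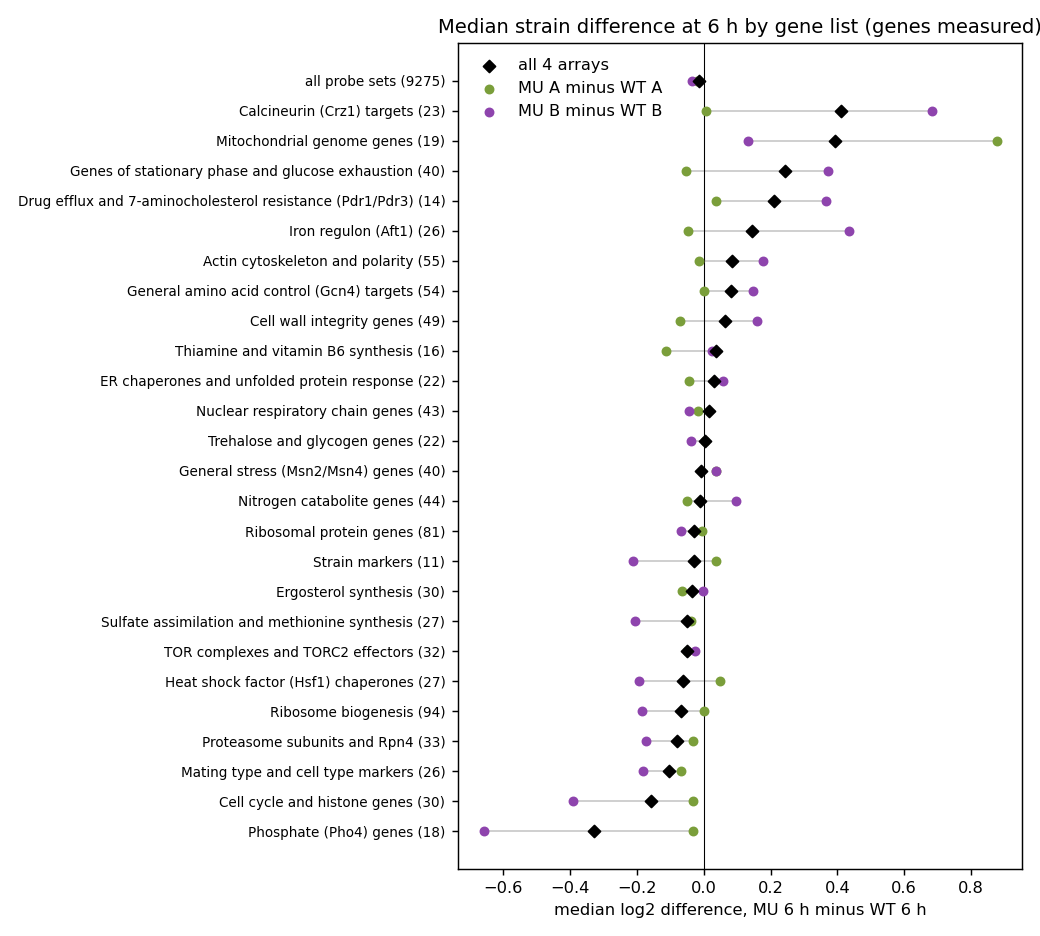
Median log2 difference of MU 6 h minus WT 6 h for 25 gene lists and all probe sets, over all 4 arrays (diamonds) and within each array pair (circles), with the number of genes measured in brackets. Calcineurin targets lie at 0.41 and phosphate genes at -0.33, and in both the value between the A arrays is near 0. The letters do not pair the cultures. With the letters crossed (not plotted) the medians were 0.38 and 0.25 for calcineurin targets and -0.24 and -0.33 for phosphate genes.

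Of 55 genes of actin and polarity, a process on which TORC2 acts, 11 were higher and 5 lower without overlap, with a median of 0.09. These are 20% and 9.09%, beside 12% and 21.3% over all genes. The median was -0.015 between the A arrays and 0.178 between the B arrays, and 12 of the 55 were highest on MU B and lowest on WT B. ABP1, an actin-binding protein of cortical patches, had 403.6 and 536.4 in MU and 326.3 and 334.4 in WT. SAC7, also named by its low p, went the other way, with a log2 difference between -0.526 and -0.288 with an array left out. ORM2, a regulator of sphingolipid synthesis downstream of TORC2, had 1604.2 and 2731.9 in MU and 1758.8 and 1117.7 in WT, which overlap. Markers of MATa cells were present in both strains, with summed signals over 7 genes of 5111.5 and 3463.6 in MU and 5189.4 and 5451.9 in WT, 3 of the 7 lower without overlap and 0 higher. Markers of MATalpha cells summed over 4 genes to 205.0 and 269.3 in MU and 244.8 and 238.3 in WT.

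The remaining lists had medians close to that of all probe sets, and the counts below can be set beside the 12% higher and 21.3% lower over all genes. General stress genes under Msn2 and Msn4 had a median of -0.01, with 6 higher and 4 lower of 40, and TMA10, a ribosome-associated protein, had 152.2 and 213.6 in MU 6 h and 108.8 and 47.1 in WT 6 h. Ergosterol genes had 2 higher and 8 lower of 30, and ERG5, the C-22 sterol desaturase, had 709.3 and 683.3 in MU and 840.6 and 827.9 in WT. Sulfate and methionine genes had 3 higher and 7 lower of 27, among them SAM2 and SAM3, the S-adenosylmethionine permease, with 65.5 and 43.9 in MU and 93.4 and 77.5 in WT. Nitrogen catabolite genes had 12 higher and 7 lower of 44 (27.3% and 15.9%) with a median of -0.01, and held DIP5 on the lower and CAR1 on the higher side. Chaperones of the endoplasmic reticulum had 4 higher and 5 lower of 22, and trehalose and glycogen genes 2 and 3 of 22. Thiamine and vitamin B6 genes had 1 higher and 3 lower of 16. In the iron regulon, ENB1, the enterobactin transporter, had 970.8 and 1800.4 in MU and 771.1 and 607.1 in WT, the reverse of FET3, with a log2 difference of 1.40 without MU 6 h A (adjusted p = 0.029 by limma) and 0.51 without MU 6 h B (adjusted p = 0.539 by limma). Of 11 strain markers 1 was higher and 2 lower, and of 26 mating type and cell type markers 1 and 7, with a median of -0.10.

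Long genes are read by several probe sets. Of 75 genes with 5 or more, 41 had more of them higher than lower without overlap, and 26 the reverse. Probe sets with a letter before the _at ending, which include the tiled ones, were higher in 18.7% and lower in 12.6%. GCN1, which activates the kinase Gcn2, had 6 of 9 higher, the vesicle coat scaffold gene SEC16 6 of 9 and the Ras inhibitor gene IRA2 6 of 11, with 1 lower. These genes were picked after their values had been seen. Others went the other way, among them POL2 with 0 of 9 higher and 4 lower, and DCK1 with 0 of 8 higher and 4 lower. At 2 h 6 of 9 were higher for GCN1, 3 of 9 for SEC16 and 4 of 11 for IRA2. The plain probe set of GCN1 had 421.6 and 327.3 in MU and 384.5 and 394.5 in WT, which overlap. That of IRA2 had 228.2 and 218.5 in MU and 247.6 and 174.3 in WT, which also overlap. The probe sets of these genes therefore disagree. The plain probe set of SEC16 was higher without overlap, with 214.1 and 197.8 in MU and 182.8 and 172.6 in WT.

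At a false discovery rate of 20%, added after the data were seen, RDAM selected 75 probe sets as higher and 0 as lower (0.809% of all). In 24 of the 75 the arrays of the strains overlapped, and 47 were highest on MU B and lowest on WT B. Of these 75, 2 were among the 42 selected at 2 h. The median difference of the 75 was 0.50 between the A arrays and 2.15 between the B arrays. The selection holds PUN1, HXT5, CMK2, GSC2, RCN1 and PRB1 from the groups above, together with MRP8, PCL5, ATG8 and COX1.

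The strain difference at 6 h was set against those at the earlier times by limma, and 0 probe sets passed for either time in either direction. At an unadjusted p under 0.05, 2.5% of probe sets were more positive and 2.52% more negative at 6 h than at 0 h, and 2.75% and 3.28% than at 2 h. DIP5, RBA50 and STE2 were among the more negative at 6 h than at 2 h, with differences of the strain differences of -0.80, -0.70 and -1.07, and ATG8 among the more positive, with 1.13.

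For scale, the strains at 2 h differed at 0 probe sets by limma, with 236 higher and 272 lower at an unadjusted p under 0.05 (2.54% and 2.93%), and RDAM selected 6 as higher at 10% (0.0647%) and 42 at 20% (0.453%). At 0 h limma called 1 higher (0.0108%), which has no symbol, and 2 lower (0.0216%), PES4 and ARO10, beside 2.09% higher and 2.54% lower at an unadjusted p under 0.05, and RDAM selected 1 as lower at 10% (0.0108%), and 1 higher (0.0108%) and 11 lower (0.119%) at 20%. ARO10, a decarboxylase of the Ehrlich pathway, had 207.4 and 214.1 in MU 6 h and 250.5 and 235.9 in WT 6 h, a narrower gap than at 0 h, where it had 58.2 and 64.9 in MU and 132.5 and 132.3 in WT. Of the 1223 probe sets higher at 6 h without overlap, 205 were also higher at 2 h (16.8%, and 17.2% of the 12.9% of probe sets higher at 2 h) and 239 were lower there. Of the 1798 lower at 6 h, 398 were also lower at 2 h, which is 22.1% of either set (19.4% of probe sets each). At 0 h, 19.2% of probe sets were higher and 15.4% lower without overlap, and these hold 275 of the higher and 386 of the lower at 6 h. These comparisons use separate arrays.

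**Figure D4:**
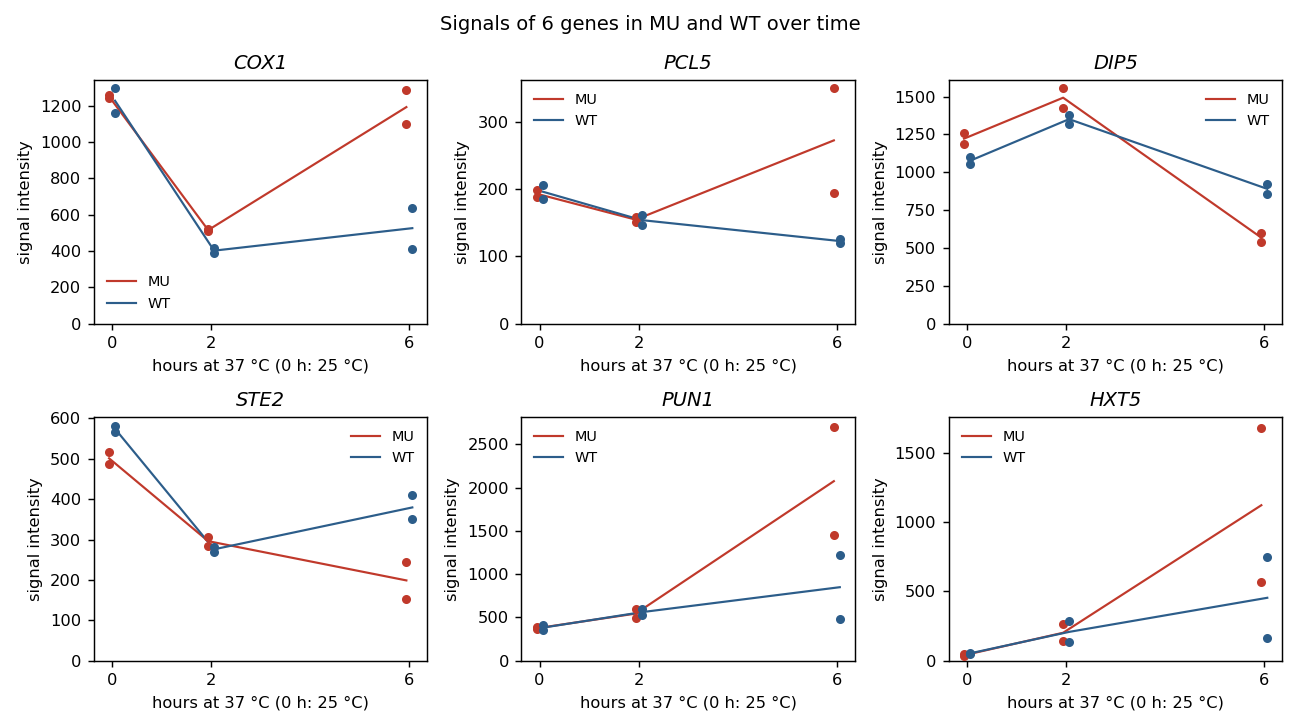
Signals of COX1, PCL5, DIP5, STE2, PUN1 and HXT5 at 0 h (25 °C), 2 h and 6 h (37 °C) in MU and WT, with each array as a point and lines through the group means. The strains lie close at 0 h and 2 h for most of these genes, and at 6 h the points of PUN1 and HXT5 spread more widely within a strain than those of DIP5.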

How the data were processed

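RNA of 12 cultures was read on Affymetrix S98 arrays. The values deposited by the authors are linear intensities (MAS 5.0 signals handled further in Matlab). All arrays follow nearly the same curve of signal against rank, with a floor of 1; which step did this was not stated. Control probe sets (60) were left out. Log2 signals were quantile-normalized and fitted with limma 3.58.1 (R 4.3.3) in 6 groups with a variance trend and 6 residual degrees of freedom, and p-values were adjusted over 9275 probe sets (Benjamini and Hochberg). RDAM used windows of 100 probe sets moved by 30. Both were tested on simulated data. By the platform annotation 6504 probe sets name 1 gene, 328 several and 2443 no gene. A gene is represented by its brightest plain _at probe set where it has one. The number of arrays limits the precision.

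Leading genes were the 10 in each direction with the lowest unadjusted p among non-overlapping plain probe sets with 1 symbol and a signal above the median, and in each list the 2 with the lowest p, beside genes the study names, TOR1, TOR2 and the 5 with the lowest p in each difference of strain differences. RCN1, RCN2, PHO89 and genes with several probe sets were named after their values had been seen. Genes that the study names as increased at 6 h were selected there on these same arrays, so their direction is no separate finding. The members and lists were chosen with earlier results of these data known. Alternatives were median scaling, an offset of 16, leaving out the dimmest 25%, no trend, only the compared arrays, ranks, an adjusted p of 0.10, a replicate block, RDAM and leaving out each array.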

Additional observations from a re-analysis of the deposited data

Results flagged for a closer look

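Between 6 h and 2 h the arrays of the strains lay apart in opposite directions for several named genes, and none of these differences passed the adjusted threshold in limma. The difference of the strain differences (log2, 6 h minus 2 h) was 1.13 for ATG8, 0.70 for RDS3, 0.51 for ELF1, 0.79 for CAR1, 0.66 for ABP1 and 0.42 for PKH3. It was -0.80 for DIP5, -0.70 for RBA50, -1.07 for STE2, -0.60 for TIR3, -0.64 for FAR1, -0.70 for MTR10 and -0.53 for THI22. Against 0 h it was 0.49 for SWH1, 0.78 for RDS3, 0.77 for CAR1, 1.01 for ENB1, 0.22 for UBC7, -0.82 for DIP5 and -0.36 for FET3.

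One of the 5 control probe sets for 25S rRNA, which no comparison used, had a signal of 3290.6 on MU 6 h A and 431.4 on MU 6 h B, above 35.6 and 130.4 in WT 6 h. It also had 4697.6 on MU 0 h A, and the other 4 stayed at 21 or less on the arrays of 6 h.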

How the results depend on the processing

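With 2 arrays a group, single arrays decided the counts. Numbers are probe sets past an adjusted p of 0.05 in limma unless RDAM is named. At 6 h (0 higher, 0 lower) leaving out an array gave 2 to 10 higher and 0 to 16 lower, no variance trend gave 1 lower, an adjusted p under 0.10 gave 1 lower, and RDAM gave 6 higher at an FDR of 10% and 75 at 20%. At 2 h (0 and 0) leaving out an array gave 0 to 14 higher and 0 to 4 lower, and RDAM 6 higher at 10% and 42 at 20%. At 0 h (1 higher, 2 lower) median scaling gave 0 and 1, an offset of 16 gave 0 and 0, leaving out the dimmest 25% gave 0 and 1, only the compared arrays 0 and 0, the replicate block 0 and 0, ranks 0 and 1, RDAM at 10% 0 and 1 and at 20% 11 lower, and leaving out an array 0 to 4 higher and 0 to 2 lower. For the strain difference at 6 h minus that at 0 h (0 and 0), no variance trend gave 1 more positive and 2 more negative, and leaving out an array 0 to 1 and 0 to 3. Minus that at 2 h, leaving out an array gave 0 to 1 in each direction. The cause of these changes was not tested, apart from the smaller number of arrays. The letters A and B did not pair the cultures: deviations of the strains at 6 h correlated at -0.0064, and the replicate block left 0 higher and 0 lower there. At 2 h they correlated at -0.104, and a crossed pairing, added after the data were seen, left 0 and 0. The TOR2 difference lay between -0.29 and 0.10 with an array left out and changed sign. For single genes and list medians, 912 values kept their direction and their side of the threshold or stayed within the spread of the list, 9 passed the threshold with an array left out, and 2, both of TOR2, changed sign or came to 0 (without WT 6 h B 0.10, without MU 6 h B 0.0). Staying within that spread allows a change of sign: with an array left out, 13 of 25 list medians took both signs, among them cell wall (-0.01 to 0.13), heat shock factor (-0.18 to 0.07) and ribosome biogenesis (-0.20 to 0.04). The list medians with an array left out and RDAM at 20% were also added after the data were seen. Probe sets at the floor of 1 have no order, which limits differences of dim genes.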

Other observations

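The 2 micron plasmid is an element carried by most laboratory strains, and the study ascribes 3 probe sets to it. The study lists them among those decreased in MU at 0 h. All 3 were lower on MU 6 h B than on the other arrays at 6 h. They had 366.4 and 238.5 in MU 6 h, against 402.3 and 470.0 in WT 6 h, then 1835.6 and 1556.0 against 1946.2 and 2243.6, and 823.7 and 602.0 against 836.2 and 937.1. MU lay below WT without overlap in each, as did 19.4% of all probe sets. At 0 h MU lay below WT without overlap in each, with log2 differences of -0.72, -0.73 and -0.66, against -0.55, -0.30 and -0.33 at 6 h. At 2 h the arrays of the strains overlapped in each, with -0.05, 0.09 and -0.14. As the 3 were taken from the study's list for 0 h, their gap at 0 h was fixed by that choice.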
